A study of Drosophila melanogaster with 8 samples.

Results

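The 10 genes described here mark the glial cells of the fly head, or carry solutes across their membranes, and were followed in RNA-seq of whole heads after neuronal knockdown of ND-75, a subunit of respiratory complex I. They are repo, nrv2, alrm, Eaat1, Gat, Gs2, Eaat2, wrapper, moody and Mdr65, taken by name from the deposited gene table and grouped by the glial class that each is used to mark. All 10 were among the 13982 genes of that table, and all 10 were among the 9986 genes with enough reads to test. RNA was sequenced from heads of 2 day old adults, with 4 libraries of each genotype and 20 heads in each library, 10 from males and 10 from females. ND-75KD flies carried nSybGal4 together with the ND-75 RNAi line HMS00853. Control flies carried nSybGal4 over w[1118], so both genotypes had the driver and only ND-75KD had the hairpin. The paper lists the RNAi stock in a background marked by y, sc, v and sev alleles rather than in w[1118]. Genetic background thus differed with genotype too, and cannot be told apart from the hairpin with these libraries. The paper gives the driver as Tub-Gal80ts; nSyb-Gal4, and the labels name nSybGal4 alone. The nSyb driver acts in neurons, and glia were not its target. The paper describes the RNAi line as leaky, so RNAi in glia cannot be told apart from RNAi in neurons with these libraries. Whether the pools of heads were taken from different crosses is not given in the sources used here, and p values therefore measure differences between pools only.

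Glia of the fly brain fall into classes by place and shape. Astrocyte-like glia send fine processes among synapses and clear glutamate and GABA from them. Ensheathing glia wrap the neuropil and cortex glia wrap the cell bodies of neurons. Subperineurial glia form the blood-brain barrier, which is sealed by septate junctions and guarded by transporters that pump foreign molecules outwards. The homeodomain factor Repo is made in nearly all glia outside the midline. Glutamate taken up by glia is turned into glutamine by glutamine synthetase and returned to neurons.

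Library totals ranged from 17448199 to 24680283 counts. CPM here are counts scaled to a common library size, where the size of each library is its total times a TMM scaling factor. ND-75 itself, on the X chromosome at 8248651 to 8251687, measured 578, 562, 680 and 684 CPM in Control replicates 1 to 4. It measured 316, 313, 282 and 312 CPM in ND-75KD replicates 1 to 4. It fell by 1.03 in log2 units (SE, the standard error, 0.11, adjusted p = 0.000148). Of all tested genes, 33.2% were called, 14.3% higher and 18.9% lower in ND-75KD, at an adjusted p under 0.05 by edgeR's quasi-likelihood test, which gives every adjusted p below, and the median log2 fold change was −0.01. Control replicate 2 stood apart from the other libraries, with 23.9% of its counts from the mitochondrial large ribosomal RNA against 4.58% to 9.00% elsewhere. Where a result of a glial gene rests on it, the value without it is given too.

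The astrocyte-like glia genes alrm and Eaat1 and the cortex glia gene wrapper fell, the barrier transporter Mdr65 rose, and the pan-glial genes repo and nrv2 were not called. Of the 10 genes, alrm, Eaat1 and wrapper were lower in ND-75KD, Mdr65 was higher and the other 6 were not called. Lower genes thus made up 3 of 10 beside 18.9% of all tested genes, and higher genes 1 of 10 beside 14.3%. The median log2 fold change of the 10 genes was −0.22, with 8 values below 0 and 2 above. The libraries of the 2 genotypes did not overlap for 3 of the 10 genes (alrm, Eaat1 and Mdr65), beside 36.2% of all tested genes. These shares were near the background, so nothing is read from the counts and the genes are described singly. DESeq2 called the same number in each direction (17.6% lower and 14.8% higher of the 11532 genes it tested). With Control replicate 2 left out, 4 genes were lower and 1 was higher (19.0% and 15.7% of all tested genes), and the median of the 10 was −0.11. In RNA from whole heads, fewer cells of a type and less RNA per cell cannot be told apart.

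**Figure D1:**
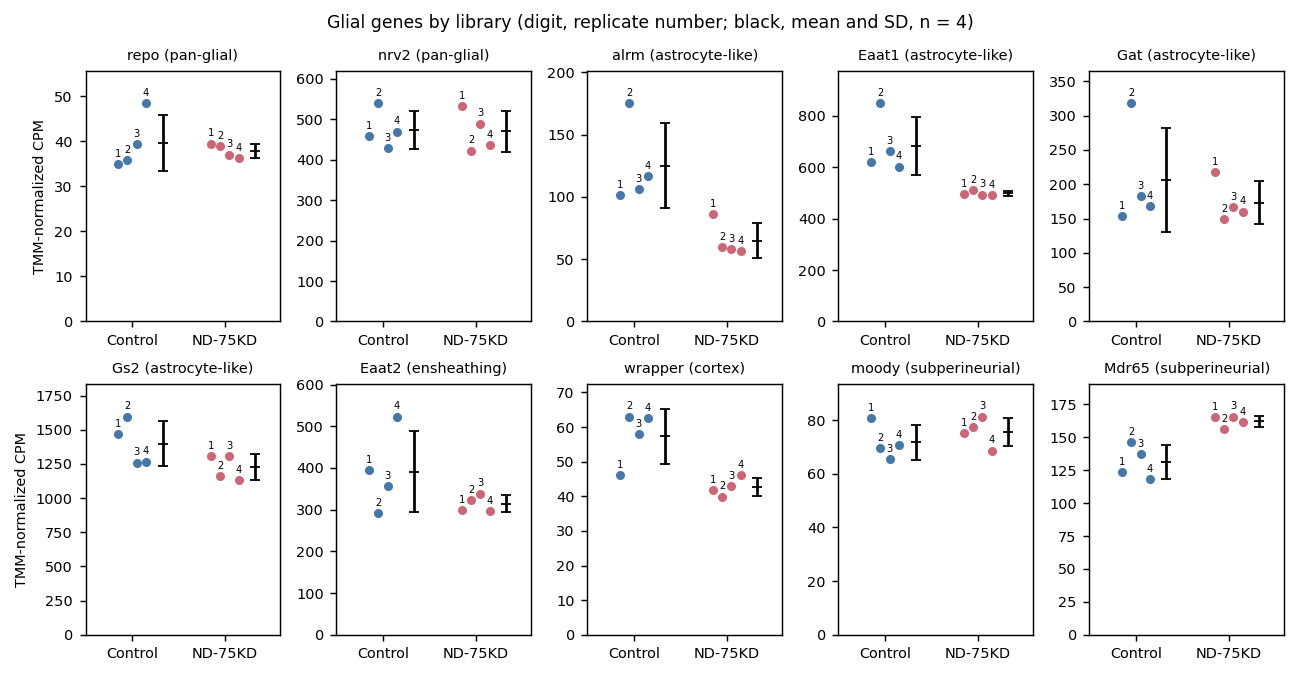
TMM-normalized CPM of the 10 glial genes in each of the 8 libraries, 1 panel per gene with its glial class, each axis starting at 0. Digits give the replicate number and black bars the mean and SD of 4 libraries. For alrm every ND-75KD point (56.2 to 86.0 CPM) lies below every Control point (102 to 175 CPM), for Mdr65 every ND-75KD point lies above, and the Control 2 point is the highest of its group in 7 of the 10 panels.

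Repo, the homeodomain transcription factor required for glial development, was taken as the most general marker. The gene lies on 3R at 18236192 to 18239602 on the forward strand, and 6.11% of its 2996 exonic bases are shared with CG7156 on the other strand. The strand setting of the counting is not given in the sources used here, so reads from that stretch could come from either gene. Repo measured 34.9, 35.7, 39.3 and 48.4 CPM in Control replicates 1 to 4 and 39.5, 38.9, 37.0 and 36.2 CPM in ND-75KD replicates 1 to 4. The groups overlapped, and the ND-75KD libraries lay inside the range of the controls. Its log2 fold change was −0.06 (SE 0.11, 95% interval −0.32 to 0.19, adjusted p = 0.684), 0.05 without Control replicate 4 and −0.10 without Control replicate 2.

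Nrv2, a beta subunit of the Na,K-ATPase that is also needed at septate junctions and whose promoter is widely used to label glia, lies on 2L at 6789770 to 6798862 on the reverse strand. It measured 459, 539, 429 and 469 CPM in the controls and 533, 422, 489 and 437 CPM in ND-75KD. The highest library of each group was at nearly the same level, and so were the means (474 ± 46.6 and 470 ± 50.9 CPM, SD, n = 4 each). The log2 fold change of −0.01 (95% interval −0.28 to 0.25, adjusted p = 0.949) changed sign with small changes of scaling, and was 0.06 without Control replicate 2, the highest library.

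Among the astrocyte-like genes alrm changed most. It encodes a leucine-rich repeat protein made in astrocyte-like glia, and lies on 3R at 25381065 to 25382781, inside the span of Fur1 on the same strand but sharing no exon with it. Control replicates 1 to 4 measured 102, 175, 106 and 117 CPM, whereas ND-75KD replicates 1 to 4 measured 86.0, 59.4, 58.3 and 56.2 CPM. The groups did not overlap, the highest control was replicate 2 and the highest ND-75KD library was replicate 1. The mean fell from 125 ± 34.1 to 64.9 ± 14.1 CPM, a log2 fold change of −0.94 (SE 0.19, 95% interval −1.37 to −0.51, adjusted p = 0.00485). Leaving out Control replicate 2 gave a control mean of 108 ± 7.74 CPM (n = 3) and a log2 fold change of −0.73 (SE 0.14, adjusted p = 0.00295). Alrm was called lower under each of 17 other settings, and no other gene of the 10 was called under all of them. Tested against a fold of 1.2, which asks for a change of more than that size, alrm was the single call, beside 11.2% of all tested genes lower and 6.97% higher.

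Eaat1, the glutamate transporter of astrocyte-like and cortex glia, lies on 2L at 9333567 to 9341925 on the forward strand. It measured 621, 849, 664 and 603 CPM in the controls and 496, 511, 494 and 492 CPM in ND-75KD. The ND-75KD libraries were nearly equal to one another, with a coefficient of variation of 1.74% against 16.5% in the controls, and all lay below the lowest control. Eaat1 fell by 0.46 in log2 units (SE 0.13, 95% interval −0.74 to −0.18, adjusted p = 0.0194), a decrease of the mean from 684 ± 113 to 498 ± 8.66 CPM. Without Control replicate 2, which held the highest value, the log2 fold change was −0.33 (SE 0.09, adjusted p = 0.0132). The call was lost, at adjusted p values of 0.0512 to 0.0559 and log2 fold changes of −0.47 to −0.45, without ND-75KD replicate 2, 3 or 4.

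Gat, the GABA transporter of astrocyte-like glia, lies on chromosome 4 at 629691 to 635350 on the forward strand. It measured 154, 318, 183 and 168 CPM in the controls and 218, 149, 167 and 160 CPM in ND-75KD. Control replicate 2 alone lay above every other library, and the remaining 7 overlapped. The log2 fold change was −0.24 (SE 0.22, adjusted p = 0.417) with that library and 0.05 (SE 0.13, adjusted p = 0.801) without it, so the sign of Gat rested on 1 library.

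Gs2, the glutamine synthetase of the cytosol, lies on the X chromosome at 11422832 to 11430197 on the forward strand and had the highest level of the 10. It measured 1467, 1596, 1259 and 1268 CPM in the controls and 1307, 1160, 1310 and 1130 CPM in ND-75KD. The groups overlapped between 1259 and 1310 CPM, and the log2 fold change was −0.19 (SE 0.13, 95% interval −0.47 to 0.09, adjusted p = 0.270). Leaving out Control replicate 2, the highest library, brought it to −0.11 (SE 0.11, adjusted p = 0.438). Glutamine synthetase, the glutamate transporter and the GABA transporter therefore did not share a call, although all 3 are attributed to the same class. Summed over alrm, Eaat1, Gat and Gs2, RPKM (CPM per kilobase of gene length) ranged from 886 to 1197 in the controls and from 751 to 870 in ND-75KD, and these sums did not overlap. Gs2, which was not called, made up most of that sum (626 of a mean of 988 RPKM in the controls). The sums of moody and Mdr65 were apart in the other direction (46.5 to 53.2 and 56.4 to 60.7 RPKM), and those of repo and nrv2 overlapped. No share over other gene groups is given here, so nothing is read from these sums.

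Eaat2, the second fly transporter of this family, marks ensheathing glia and is known to carry aspartate and taurine. It lies on 2L at 737212 to 744395 on the reverse strand. The control libraries measured 394, 291, 356 and 523 CPM and the ND-75KD libraries 299, 323, 338 and 296 CPM. Here Control replicate 2 was the lowest of all 8 libraries rather than the highest, and the other 3 controls lay above every ND-75KD library. The log2 fold change was −0.32 (SE 0.16, adjusted p = 0.156) with all libraries. Without Control replicate 2 it was −0.43 (SE 0.13, adjusted p = 0.0252), so Eaat2 was called lower once that library was left out, and also with the trend on gene length removed.

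Wrapper, an immunoglobulin superfamily protein of cortex glia, lies on 2R at 22379637 to 22382675 on the forward strand. It measured 46.0, 63.0, 58.0 and 62.5 CPM in the controls and 41.9, 39.9, 43.0 and 46.0 CPM in ND-75KD. Control replicate 1 and ND-75KD replicate 4 were level at 46.0 CPM, and the other 3 controls lay well above the ND-75KD libraries. Wrapper fell by 0.42 in log2 units (SE 0.11, 95% interval −0.68 to −0.17, adjusted p = 0.0162), from 57.4 ± 7.90 to 42.7 ± 2.56 CPM. The log2 fold change was −0.37 without Control replicate 2 (adjusted p = 0.0218) and −0.39 without Control replicate 3 or ND-75KD replicate 2, where the call was lost (adjusted p = 0.0555 and 0.0554).

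Of the 2 genes of subperineurial glia, 1 was higher and 1 was not called. Moody, the G protein-coupled receptor that organises the barrier, lies on the X chromosome at 2044292 to 2050120 on the reverse strand, and measured 80.9, 69.7, 65.6 and 70.9 CPM in the controls and 75.2, 77.4, 81.3 and 68.6 CPM in ND-75KD. The groups overlapped over nearly their whole range, with a log2 fold change of 0.08 (SE 0.10, 95% interval −0.14 to 0.29, adjusted p = 0.568) that turned to −0.04 with the length trend removed. It was 0.18 without Control replicate 1, 0.04 without ND-75KD replicate 3 and 0.12 without ND-75KD replicate 4. Mdr65, an ABC transporter related to mammalian P-glycoprotein that exports drugs at the barrier, lies on 3L at 6240500 to 6245746 on the reverse strand. It measured 124, 147, 137 and 118 CPM in the controls and 165, 156, 166 and 161 CPM in ND-75KD, so every ND-75KD library was above every control. Mdr65 rose from 131 ± 13.0 to 162 ± 4.46 CPM, a log2 fold change of 0.30 (SE 0.09, 95% interval 0.09 to 0.51, adjusted p = 0.0314). It was 0.36 (SE 0.08, adjusted p = 0.00796) without Control replicate 2. The call was lost without Control replicate 4 or any 1 of the ND-75KD libraries (log2 fold changes of 0.25 to 0.32, adjusted p of 0.0542 to 0.0848), and with the length trend removed (0.16).

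**Figure D2:**
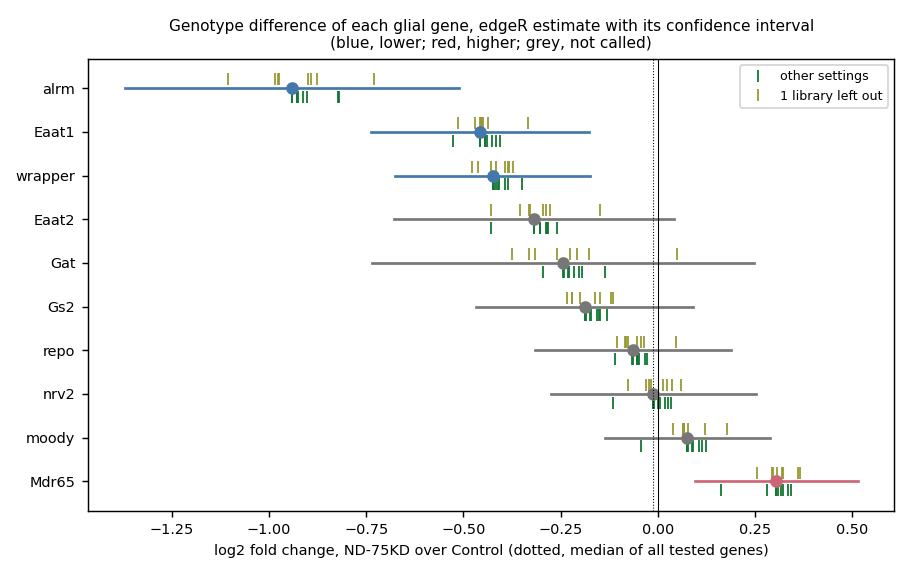
Log2 fold change of ND-75KD over Control for each of the 10 glial genes, with circles for the edgeR estimate and lines for its 95% interval. Ticks above each line give the estimate with 1 library left out and ticks below it the estimate under other settings. Alrm (−0.94) is farthest from 0 and its ticks stay between −1.11 and −0.73, whereas the ticks of Gat reach from −0.37 to 0.05.

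The longest genes of the head tended to be higher in ND-75KD and the shortest lower, and when all tested genes were divided by length into 10 equal groups, the median log2 fold change ran from −0.37 in the group up to 801 bases to 0.23 in the group from 5882 bases. Alrm, at 1717 bases, lay in the fourth group (median −0.15) and wrapper in the fifth (−0.06). Eaat1, repo and Gat lay in the seventh (0.04), and Mdr65, at 4135 bases, in the ninth (0.17). Alrm, Eaat1 and wrapper thus lay below the median of genes of their own length, and Mdr65 lay above it by less than its fold change. With the trend removed, alrm was at −0.82, Eaat1 at −0.53 and wrapper at −0.35, all still called lower, and Eaat2 joined them at −0.43, so 4 of the 10 genes were lower beside 19.8% of all tested genes and 0 were higher by edgeR beside 15.6%.

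Per gene length, the 10 genes spanned a wide range in the controls. Gs2 was highest at 626 ± 73.3 RPKM, followed by Eaat1 at 218 ± 35.9, nrv2 at 133 ± 13.1 and Eaat2 at 97.9 ± 24.4 RPKM. Alrm (72.7 ± 19.9 RPKM) and Gat (71.0 ± 26.2 RPKM) were next and overlapped. Mdr65 (31.8 ± 3.14 RPKM), wrapper (29.0 ± 4.00 RPKM), moody (18.2 ± 1.65 RPKM) and repo (13.2 ± 2.06 RPKM) were lowest, so the transcription factor that defines glia was the least abundant of their messages here. The neighbours nrv2 and Eaat2, Eaat2 and alrm, alrm and Gat, and Mdr65 and wrapper overlapped between control libraries, and the other neighbours did not. In ND-75KD the order of the means was the same but for alrm (37.8 ± 8.20 RPKM), which lay below every library of Gat (59.9 ± 10.6 RPKM). Its libraries (32.7 to 50.1 RPKM) overlapped those of Mdr65 (37.7 to 40.1 RPKM), so these genes could not be ordered there. Wrapper (21.6 ± 1.30 RPKM) and moody (19.2 ± 1.35 RPKM) overlapped as well.

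**Figure D3:**
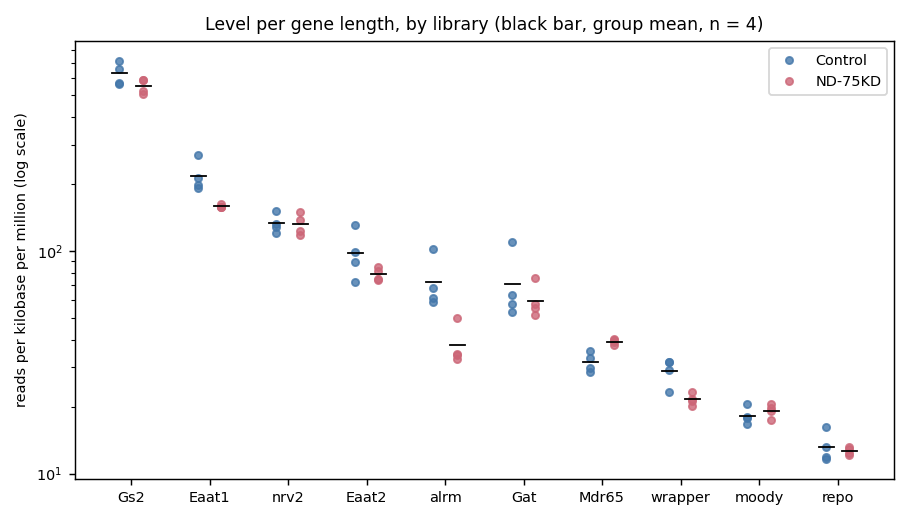
RPKM on a log axis for the 10 glial genes, ordered by the control mean, with 1 point per library and a black bar for the mean of 4 libraries. Gs2 (626 RPKM in Control) stands above the rest and repo (13.2 RPKM) is lowest, and the points of alrm (72.7 RPKM in Control, 37.8 RPKM in ND-75KD) are the most separated by genotype.

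The spread among libraries also differed by gene. The SD of the controls was larger than that of ND-75KD for 9 of the 10 genes, and the highest control was replicate 2 for 7 of them. Gat varied most among controls (coefficient of variation 36.9%), then alrm (27.3%) and Eaat2 (25.0%), whereas moody (9.07%), nrv2 (9.84%) and Mdr65 (9.89%) varied least. In ND-75KD alrm (21.7%) and Gat (17.7%) varied most, in both cases through replicate 1.

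Ratios within a library do not depend on its total. The ratio of alrm to repo in RPKM ran from 4.20 to 8.55 in the controls and from 2.67 to 3.80 in ND-75KD, without overlap. The ratio of wrapper to repo ran from 1.96 to 2.67 and from 1.56 to 1.93, apart by a narrow margin. For Eaat1 over repo the ranges overlapped (11.9 to 22.7 and 12.0 to 13.0), as they did for Mdr65 over repo (1.77 to 2.97 and 2.91 to 3.24) and Mdr65 over moody (1.45 to 2.00 and 1.92 to 2.24). They also overlapped for Gat over repo, Eaat1 over Eaat2, Gs2 over Gs1, nrv2 over nrv3 and nrv2 over nrv1. The widest separation was that of alrm over Mdr65, which ran from 1.86 to 2.87 in the controls and from 0.839 to 1.25 in ND-75KD. The 2 genes used in that ratio had already moved in opposite directions, so it adds no further test. Alrm and wrapper were already called lower and repo was not called, so their ratios to repo add none either. How often ratios of other gene pairs are apart was not computed.

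The closest relatives of these genes in the same families gave a separate view. Of 7 paralogs, nrv3 was higher, Mdr50 and ine were lower and 4 were not called, with a median log2 fold change of −0.08, beside 14.3% higher and 18.9% lower of all tested genes. Nrv3, a beta subunit of the Na,K-ATPase found in the nervous system, measured 1504, 1365, 1111 and 1292 CPM in the controls and 1637, 1772, 2029 and 1819 CPM in ND-75KD. It rose by 0.46 in log2 units (SE 0.13, adjusted p = 0.0230) where nrv2 stayed at −0.01 and nrv1 at −0.08 (adjusted p = 0.643). The call of nrv3 was lost with the length trend removed (0.29) and without Control replicate 3 or ND-75KD replicate 2, 3 or 4 (0.40 to 0.47).

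Mdr50, an ABC transporter of the same family as Mdr65, measured 6.80, 6.99, 5.99 and 8.09 CPM in the controls and 3.23, 1.90, 1.25 and 1.07 CPM in ND-75KD. The groups did not overlap, and the log2 fold change was −1.92 (SE 0.30, adjusted p = 0.00106), opposite in sign to that of Mdr65. Mdr49 was at 0.15 (adjusted p = 0.316). Ine, a member of the neurotransmitter transporter family to which Gat belongs, measured 88.9, 76.6, 80.5 and 92.5 CPM in the controls and 59.0, 48.2, 56.3 and 51.0 CPM in ND-75KD. It fell by 0.66 in log2 units (SE 0.10, adjusted p = 0.000946), with no overlap. Gs1, the mitochondrial glutamine synthetase, measured 433, 510, 464 and 431 CPM in the controls and 415, 389, 337 and 380 CPM in ND-75KD. Its libraries did not overlap either, but at −0.27 (SE 0.11, adjusted p = 0.0761) it missed the threshold in edgeR and passed it in DESeq2 and limma voom. Tre1, the receptor most like moody, was at 0.49 (adjusted p = 0.0854), and at 0.60 and called without Control replicate 2.

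The other genes of glutamate and GABA handling moved in both directions. Of 14 genes, Eaat1, Eaat2, Gat, Gs2 and Gs1 among them, 5 were lower, 3 were higher and 6 were not called (18.9% and 14.3% of all tested genes), with a median of −0.26 beside −0.01 over all tested genes. The lower genes were Eaat1 and 4 enzymes. Gabat, the GABA transaminase that starts the breakdown of GABA, measured 338, 333, 303 and 342 CPM in the controls and 241, 241, 235 and 247 CPM in ND-75KD (log2 fold change −0.45, SE 0.09, adjusted p = 0.00423). Ssadh, succinic semialdehyde dehydrogenase, which takes the next step, measured 138, 206, 176 and 178 CPM and then 117, 109, 109 and 115 CPM (−0.64, adjusted p = 0.00308). In both enzymes every ND-75KD library was below every control. The aspartate aminotransferases Got1 (442 ± 111 to 225 ± 23.2 CPM, −0.97, adjusted p = 0.00177) and Got2 (603 ± 80.3 to 353 ± 60.4 CPM, −0.77, adjusted p = 0.00316) fell as well.

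The 3 higher genes of that list act in neurons. VGAT, which loads GABA into synaptic vesicles, measured 54.4, 50.3, 56.5 and 63.4 CPM in the controls and 89.9, 87.2, 91.8 and 90.3 CPM in ND-75KD (log2 fold change 0.68, SE 0.09, adjusted p = 0.000500). Gad1, the enzyme that makes GABA, rose from 658 ± 66.6 to 932 ± 54.4 CPM (0.50, adjusted p = 0.00799). VGlut, the vesicular glutamate transporter, rose from 232 ± 15.6 to 303 ± 8.36 CPM (0.39, adjusted p = 0.00937), a call that was lost with the length trend removed (0.18). The lower genes numbered 7 without Control replicate 2 and 4 without ND-75KD replicate 2, 3 or 4.

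**Figure D4:**
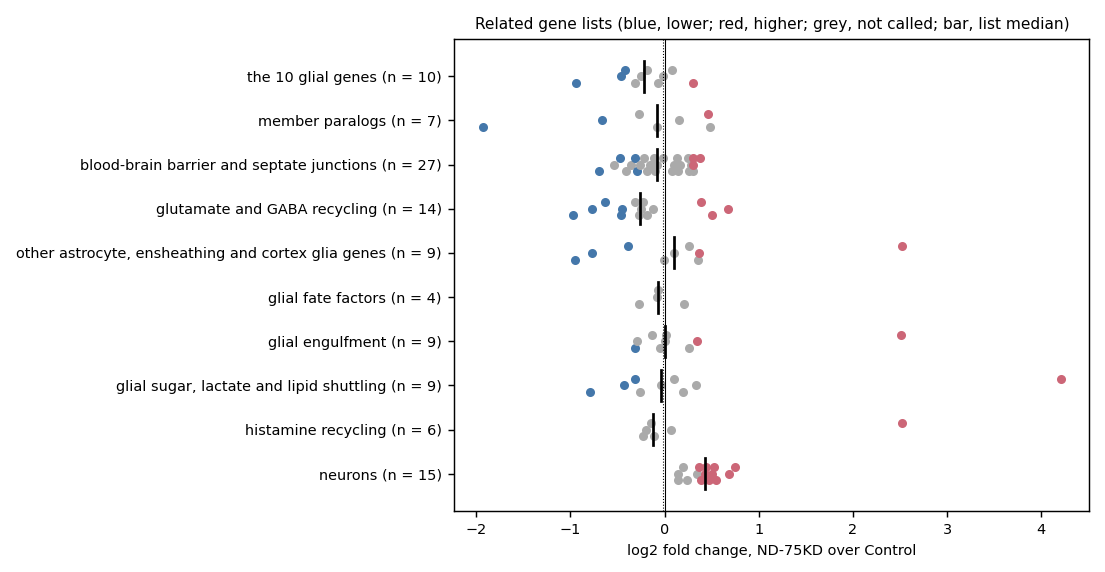
Log2 fold change of ND-75KD over Control for the 10 glial genes, their paralogs, 7 related gene lists and neuronal markers, 1 point per gene, with a black bar at each list's median. The median is −0.22 for the 10 glial genes, −0.26 for glutamate and GABA recycling, −0.08 for the blood-brain barrier and septate junctions and 0.43 for neurons (0.18 with the length trend removed), and single genes (e, Mmp1 and Ldh, at 2.52, 2.51 and 4.21) lie far to the right of their lists.

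Genes of the blood-brain barrier and its septate junctions moved in both directions. Of 27 genes, moody, Mdr65 and nrv2 among them, 3 were higher, 4 lower and 20 not called (14.3% and 18.9% of all tested genes), and the median was −0.08 (−0.03 without Control replicate 2 and −0.12 with the length trend removed). Beside Mdr65, the higher genes were Ggamma1 (0.38, adjusted p = 0.0381), a G protein gamma subunit that acts in Moody signalling, and M6 (0.30, adjusted p = 0.0249), a proteolipid protein of tricellular junctions whose exons overlap those of SAK. Ggamma1 averaged 975 CPM in the controls and 1268 CPM in ND-75KD, where moody averaged 71.8 and 75.6 CPM. Whole heads do not show which cells the reads of these barrier genes came from. Galphai, a G protein alpha subunit of the Moody pathway, measured 56.2, 58.1, 52.6 and 46.6 CPM in the controls and 42.2, 39.4, 36.8 and 34.8 CPM in ND-75KD. It fell by 0.48 in log2 units (SE 0.10, adjusted p = 0.00593). Galphao, another alpha subunit of the list, had the opposite sign and was not called (0.28, adjusted p = 0.129). Tsf2, a transferrin required for septate junctions, measured 57.3, 53.1, 61.5 and 62.1 CPM and then 38.1, 35.9, 34.7 and 36.3 CPM, a fall of 0.69 (SE 0.09, adjusted p = 0.000359). Galphai and Tsf2 were below every control in every ND-75KD library and kept their call whichever single library was left out. The claudins kune (−0.30, adjusted p = 0.0435) and pck (−0.32, adjusted p = 0.0237) were also lower. The calls of kune (−0.32 to −0.23), pck (−0.33 to −0.26), Ggamma1 (0.34 to 0.41) and M6 (0.27 to 0.31) were each lost without ND-75KD replicate 2, 3 or 4. Those of kune, pck and Ggamma1 were also lost without Control replicate 3, those of kune, Ggamma1 and M6 without ND-75KD replicate 1, and that of kune without Control replicate 2. With the length trend removed neither claudin was called (kune −0.12, pck −0.18), and kune also lost its call under both other scalings and both other filters. The higher genes of the list numbered 6 without Control replicate 1, 4 without replicate 2, 2 without replicate 3 or 4, and 0 by edgeR without any 1 ND-75KD library, and DESeq2 on all libraries gave 5. The lower genes numbered 2 without Control replicate 3 or ND-75KD replicate 2, 3 or 4. At an unadjusted p under 0.05, 5 were higher and 6 lower with all libraries.

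Other genes used to tell glial classes apart included larger changes than any of the 10. Of 9 such genes, 2 were higher, 3 lower and 4 not called, beside 14.3% higher and 18.9% lower of all tested genes. The median was 0.10, 0.04 without Control replicate 2 and −0.04 with the length trend removed. Not called were zyd (−0.0045, adjusted p = 0.973), wtrw (0.10, adjusted p = 0.443), Obp44a (0.36, adjusted p = 0.267) and drpr (0.26, adjusted p = 0.106). The list thus held genes that did not fall as well as genes that did. The gene e (ebony) encodes an enzyme that couples beta-alanine to histamine and dopamine and is made in glia as well as in cuticle. It measured 102, 106, 114 and 75.7 CPM in the controls and 642, 589, 608 and 444 CPM in ND-75KD. It rose by 2.52 in log2 units (SE 0.16, adjusted p = 8.29e-06), and replicate 4 was lowest in both groups. Oct-TyrR, an amine receptor of astrocytes, was also higher, at 0.36 (adjusted p = 0.0396). Cyp4g15, a cytochrome P450 of cortex glia, measured 67.4, 76.0, 69.5 and 76.4 CPM in the controls and 51.6, 36.1, 28.2 and 33.8 CPM in ND-75KD. It fell by 0.95 (SE 0.16, adjusted p = 0.00176), about as far as alrm. CG9657, a predicted sodium-coupled solute transporter, fell from 49.5 ± 6.42 to 28.9 ± 5.91 CPM (−0.77, adjusted p = 0.00358), and the FGF receptor htl from 20.4 ± 0.767 to 15.6 ± 1.51 CPM (−0.39, adjusted p = 0.0150). Oct-TyrR lost its call without any 1 ND-75KD library (0.34 to 0.38), leaving 1 higher gene, and with the length trend removed (0.26), and htl lost it without Control replicate 3 or ND-75KD replicate 4 (−0.35 to −0.33). The higher genes numbered 3 without Control replicate 2.

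In the histamine cycle, glia take up the photoreceptors' transmitter and e conjugates it. Of its 6 tested genes e was the only call, beside 14.3% higher and 18.9% lower of all tested genes. The median was −0.13, and 0 were lower by edgeR or DESeq2, with 1 below an unadjusted p of 0.05. Of 4 tested fate factors of glia, 0 were called by edgeR, DESeq2 or limma voom, beside 33.2% of all tested genes by edgeR. At an unadjusted p under 0.05, 1 was lower (pnt, an ETS factor, −0.28, adjusted p = 0.0663, called lower without ND-75KD replicate 1). With the length trend removed, 2 of the 4 were called lower by edgeR, beside 19.8% of all tested genes, and their median was −0.21. The early fate factors gcm and gcm2 and the factor tll had too few reads to test.

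Of 9 genes of glial engulfment, 2 were higher, 1 lower and 6 not called, with a median of 0.01, beside the same 14.3% and 18.9%. Mmp1, a matrix metalloproteinase that glia make after axon injury, measured 95.0, 101, 103 and 49.2 CPM in the controls and 645, 507, 471 and 364 CPM in ND-75KD. It rose by 2.51 in log2 units (SE 0.25, adjusted p = 9.87e-05), and in whole heads its reads cannot be assigned to glia. Draper (drpr), the engulfment receptor itself, measured 129, 95.9, 127 and 132 CPM in the controls and 154, 140, 152 and 134 CPM in ND-75KD. Its groups did not overlap, yet its log2 fold change of 0.26 (SE 0.11, adjusted p = 0.106) was not called. Ced-12 (0.35, adjusted p = 0.0489) and mbc (−0.31, adjusted p = 0.0424), partners in the activation of Rac, were near the threshold, and mbc was not called under either other scaling or either other filter. The call of Ced-12 was lost without Control replicate 2 or 3 or any 1 ND-75KD library (0.28 to 0.36), and that of mbc without any 1 library except Control replicate 2 (−0.34 to −0.20).

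In the list of sugar, lactate and lipid exchange between glia and neurons, 1 of 9 genes was higher, 3 were lower and 5 were not called, with a median of −0.03 (−0.18 with the length trend removed), again beside 14.3% higher and 18.9% lower. Tret1-1, the trehalose transporter of perineurial glia, measured 491, 626, 531 and 519 CPM in the controls and 355, 333, 263 and 305 CPM in ND-75KD. It fell by 0.79 in log2 units (SE 0.13, adjusted p = 0.00130) without overlap. The monocarboxylate transporter out was at −0.44 (adjusted p = 0.00869) and the lipocalin GLaz at −0.31 (adjusted p = 0.0356), the latter lost without Control replicate 1, 2 or 3 or ND-75KD replicate 2, 3 or 4 (−0.31 to −0.24), with the length trend removed (−0.15) and with at least 10 reads in every library. Lactate dehydrogenase (Ldh), which is made in glia and other tissues, measured 24.6, 39.5, 29.1 and 12.0 CPM in the controls and 432, 472, 488 and 538 CPM in ND-75KD, and rose by 4.21 (SE 0.31, adjusted p = 1.38e-05). The lower genes numbered 2 without Control replicate 1, 2 or 3 or ND-75KD replicate 2, 3 or 4.

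Markers of cell types other than glia are given whole, and their counts stand beside 14.3% higher and 18.9% lower of all tested genes. Of 15 neuronal genes, 10 were higher, 5 were not called and all 15 had a positive value, and their summed level ranged from 3544 to 4586 CPM in the controls and from 4948 to 5297 CPM in ND-75KD. Many of these genes are long, and with the length trend removed 7 were higher and the median went from 0.43 to 0.18. Of 13 photoreceptor genes, 6 were lower and 7 not called (42648 to 61543 and 32581 to 39571 CPM). Of 9 fat body genes, 7 were lower and 1 higher (28401 to 42774 and 5132 to 10953 CPM), and of 7 hemocyte genes, 6 were lower (2253 to 5360 and 1148 to 1595 CPM). Of 9 muscle genes, 1 was higher and 1 lower, and the sums overlapped (8845 to 12250 and 10023 to 11274 CPM). The single higher genes of the fat body and muscle lists lost their call when 1 of several libraries was left out (Control replicate 1 or ND-75KD replicate 2 or 3 for fat body, Control replicate 3 or any 1 ND-75KD library for muscle). Each marker of these lists had reads in at least 1 library. The 10 glial genes summed to 3297 to 4083 CPM in the controls and 2883 to 3261 CPM in ND-75KD. The lower fat body, hemocyte and photoreceptor sums went with the lower alrm, Eaat1 and wrapper, and the higher neuronal sum went with the higher Mdr65, but their part in these results was not tested.

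**Figure D5:**
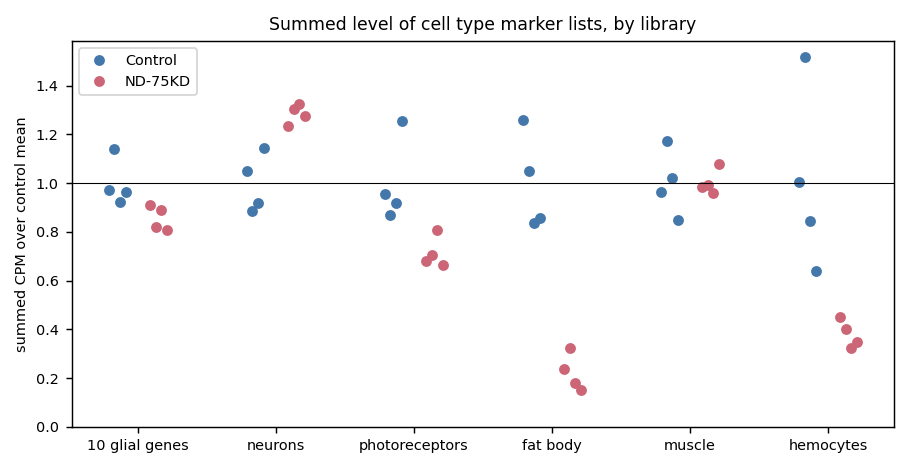
Summed CPM of the 10 glial genes and of marker lists of other cell types in each library, divided by the control mean, on an axis from 0. The fat body sums of ND-75KD (5132 to 10953 CPM) lie farthest below the controls (28401 to 42774 CPM), the neuronal sums lie above them, and the glial sums (2883 to 3261 against 3297 to 4083 CPM) lie just below.

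The genes most like each member across the 8 libraries were sought among 6891 genes whose mean reached 10 CPM, by the root mean square difference of centred log2(CPM + 1) values. Alrm, whose own deviation from its mean was 0.54, was nearest to CG4250 at a difference of 0.12, and CG4250 had a log2 fold change of −0.79. Eaat1 was nearest to CG8397 (0.05), wrapper to Dgkepsilon (0.05) and Mdr65 to CG17272 (0.04), with log2 fold changes of −0.47, −0.39 and 0.34 for the 3 neighbours. Gat was nearest to AANATL2 (0.09), Eaat2 to CG10077 (0.07), Gs2 to wun2 (0.04), nrv2 to Sod3 (0.08), repo to Ythdc1 (0.04) and moody to egr (0.04). Among the 10 genes themselves the closest pair was nrv2 and Gs2 (0.11), Eaat1 was closest to wrapper (0.16), and the farthest pair was alrm and Mdr65 (0.66).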

How the data were processed

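RNA from heads of 4 Control and 4 ND-75KD pools was measured. Cleaning with fastp, mapping with HISAT2 and counting with featureCounts on the Ensembl annotation were done by the authors, with the tools' versions and the strand setting not given in the sources used here. The deposited counts are raw counts per gene. The deposited signal values are counts that the authors scaled with size factors. FPKM, which the paper calls RPKM, were scaled to gene length by the authors and deposited beside them. The log2 fold changes and p-values deposited by the authors come from their own DESeq2 comparison (Control over ND-75KD) and were not used. Gene coordinates are those of the deposited table, and for 13869 of 13982 genes, all 10 glial genes among them, they equal those of the annotation used to find overlapping exons.

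The genotypes were compared on the counts in edgeR 4.0.16 (R 4.3.3). The filter was filterByExpr (minimum count 10, minimum total 15), which left 9986 genes. Scaling was by TMM and the test was the quasi-likelihood test, with Benjamini-Hochberg adjustment over those genes and a call at an adjusted p under 0.05. SE is the size of the log2 fold change over the square root of F, and intervals are at 95%. The biological coefficient of variation was 0.171. CPM are on TMM library sizes, and RPKM divide them by gene length in kilobases. The test was tried on simulated data before use. Totals of Control replicates 1 to 4 were 24680283, 21758154, 22756120 and 24327248 counts, and those of ND-75KD replicates 1 to 4 were 17967264, 17448199, 21371905 and 24071517.

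The glial genes and the lists were chosen with earlier results of these data known. Genes named are the 10 glial genes, their 7 paralogs, every called gene of 7 related lists, ND-75, and the gene most like each glial gene (smallest root mean square difference of centred log2(CPM + 1) over 8 libraries, mean CPM of at least 10). The genes pnt, drpr, zyd, wtrw and Obp44a and the ratios between genes were chosen after their values were seen. The listed genes chk and BalaT were not analysed here. Alternatives were each library left out, a test against a fold of 1.2, the replicate number as a block, removal of the trend on gene length by loess (span 0.5), a filter of 10 reads in all libraries or none, upper quartile scaling, DESeq2 size factors, DESeq2 1.42.0, and voom with quality weights in limma 3.58.1.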

Additional observations from a re-analysis of the deposited data

Results flagged for a closer look

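In each group of 4 libraries, 84 groups over 42 genes were searched for a single library far from the other 3, and 5 were found. Chance alone gives about 1 in 20 such groups. Alrm measured 86.0 CPM in ND-75KD replicate 1 and 56.2 to 59.4 CPM in the other ND-75KD libraries, and without that library its log2 fold change was −1.11 and still called. Got1 measured 260 CPM in the same library and 212 to 216 CPM in the others. Htl measured 19.3 CPM in Control replicate 1 and 20.8 CPM in each of the other controls. Ced-12 measured 22.9 CPM in ND-75KD replicate 2 against 21.6 to 21.8 CPM. Mmp1 measured 49.2 CPM in Control replicate 4 against 95.0 to 103 CPM, and all were below the lowest ND-75KD library (364 CPM). Gat in Control replicate 2, at 318 CPM against 154 to 183 CPM, just missed the limit.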

How the results depend on the processing

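Alrm was called lower under all 17 alternatives (−1.11 to −0.73). Against a fold of 1.2, Eaat1 (−0.46), wrapper (−0.42) and Mdr65 (0.30) were not called, leaving 0 glial genes higher and 1 lower of 696 higher and 1121 lower genes in all. That test gave 0 higher paralogs, 0 higher and 2 lower barrier genes, 1 higher recycling gene, 1 higher gene among other glial genes, 1 higher and 0 lower engulfment genes and 1 lower shuttling gene. With the length trend removed, 0 glial genes were higher and 4 lower, Mdr65 was at 0.16 and not called, Eaat2 at −0.43 and called, moody at −0.045, Mdr49 at −0.0011, and 2 fate factors were lower. DESeq2 gave 5 higher barrier genes and voom 7. DESeq2 called 1702 genes higher in all and voom 1996, against 1429 in the main fit, so nothing is read from these counts. Without a filter, 1356 genes were higher and 1882 lower in all. Of the lists, 1 other glial gene and 1 engulfment gene were then higher and 0 engulfment genes lower. The latter count was also 0 with DESeq2 size factors, upper quartile scaling or at least 10 reads in every library. Nrv2 was at 0.0043 in DESeq2, 0.033 in voom, 0.0014 with DESeq2 size factors, 0.019 with upper quartile scaling and 0.027 with at least 10 reads.

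No pairing of libraries by replicate number was detected. Deviations of same-numbered libraries correlated at −0.11, −0.04, −0.01 and 0.03 across genes, and those of unlike-numbered libraries at −0.08 to 0.11. A weak pairing could be missed this way. With the replicate number as a block, 1154 genes were higher and 1553 lower, Mdr65 was at 0.31 and not called, and 0 glial genes, 0 paralogs, 0 barrier genes, 1 other glial gene and 1 engulfment gene were higher, with 2 barrier genes and 0 engulfment genes lower.

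With 1 library left out, higher genes numbered 931 (without ND-75KD replicate 3) to 1723 and lower genes 1308 to 1980. Glial genes numbered 0 to 1 higher and 1 to 4 lower, paralogs 0 to 2 higher, barrier genes 0 to 6 higher and 2 to 5 lower, recycling genes 4 to 7 lower, other glial genes 1 to 3 higher and 2 to 3 lower, fate factors 0 to 1 lower, engulfment genes 1 to 2 higher and 0 to 1 lower, and shuttling genes 2 to 3 lower. Log2 fold changes ranged from −0.10 to 0.045 for repo, −0.078 to 0.060 for nrv2, −0.52 to −0.33 for Eaat1, −0.37 to 0.048 for Gat, −0.23 to −0.11 for Gs2, −0.43 to −0.15 for Eaat2, −0.48 to −0.37 for wrapper, 0.038 to 0.18 for moody and 0.25 to 0.36 for Mdr65. The 4 libraries a group limit what could be called, and no scaling moved the median of all genes by over 0.1.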

Other observations

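Among called genes of the related lists, 18 of 28 stayed called whichever single library was left out, namely Tsf2, Galphai, Gabat, Ssadh, Got1, Got2, Cyp4g15, CG9657, Tret1-1, Mdr50, out and ine below the controls and e, Mmp1, Ldh, VGAT, Gad1 and VGlut above them. The same share over all called genes is not given here, so the count is not read as a trait of these lists.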
